A study of Mus musculus with 10 samples.

Results

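Aldo-keto reductases are soluble enzymes that use NADPH to reduce the carbonyl groups of steroids, sugars, bile acid precursors and reactive aldehydes to alcohols. The 10 genes described here are the aldo-keto reductases of liver chosen by symbol (Akr1c6, Akr1c12, Akr1c13, Akr1c14, Akr1c19, Akr1c20, Akr1d1, Akr1a1, Akr1b3 and Akr7a5), out of 47702 genes in the deposited table. All 10 were found, and all 10 passed the filter on low values. Their transcripts were measured in the livers of female mice, as FPKM (fragments per kilobase of transcript, scaled to the library's mapped fragments). One group carried a whole-body knockout of Etnppl (KO, 5 libraries) and the other was wild type for Etnppl (WT, 5 libraries). Both groups had eaten chow for 20 weeks, and their livers were snap frozen. No source used here gives the strain, the age or the part of Etnppl that was deleted. The labels do not say whether the libraries of a genotype came from separate mice, and the p-values below rest on the spread between libraries, part of which may be technical.

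Members of this superfamily share a barrel fold and a common way of binding the cofactor, and differ mainly in the loops that choose the substrate. In liver the Akr1c enzymes act on steroid hormones and on foreign ketones, and in rodents they are encoded by a cluster of duplicated genes. Akr1d1 reduces a double bond of the A ring in bile acid precursors and steroid hormones, Akr1a1 makes gulonate for ascorbate, Akr1b3 is aldose reductase of the polyol pathway, and Akr7a5 reduces dialdehydes and succinic semialdehyde.

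Etnppl itself, the lyase that breaks down phosphoethanolamine, was at 43.32 to 108.39 FPKM in WT and at 17.72 to 26.43 FPKM in KO. The labels and this gene therefore went the same way in all 10 libraries, and its transcript was reduced rather than absent. No source used here gives read totals. Depth relative to the mean, read from the steps between low values of 270 genes, ranged from 0.901 to 1.112 and averaged 1.051 in WT and 0.954 in KO. The hepatocyte markers Alb, Apoa1, Ttr, Serpina1c, Cps1 and Hnf4a summed to 54996 to 60153 FPKM in WT and 59484 to 65235 FPKM in KO. Alb alone averaged 41138 FPKM in WT and 43771 FPKM in KO, so the sums mostly follow this gene. Of these 6, Cps1 rose (limma adjusted p = 0.0034) and 5 did not pass. Among those 5, Alb, Ttr and Apoa1 had higher means in KO. Hnf4a (log2 difference -0.30, limma adjusted p = 0.12) and Serpina1c (-0.22, limma adjusted p = 0.11) had lower ones. In whole liver, fewer cells of a type and less RNA per cell cannot be told apart. Of 8 Kupffer cell markers 3 were called lower and none higher. Marco alone had a higher mean in KO, 12.4 against 6.71 FPKM in WT, and did not pass (limma adjusted p = 0.19). Its libraries spread from 7.95 to 26.06 FPKM in KO and from 4.55 to 10.45 FPKM in WT, and so overlapped. The 8 markers summed to 227.6 to 267.3 FPKM in WT and 155.4 to 225.7 FPKM in KO. Of the tested markers of other cells, 1 of 4 for cholangiocytes and 1 of 6 for stellate cells and fibroblasts fell, and none of 6 endothelial, 4 lymphocyte, 3 neutrophil or 2 adrenal markers passed. The part of these cells in the results below was not tested.

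Among the WT libraries, 3 stood apart in other genes. WT 4 and WT 5 held transcripts of the adrenal cortex. Cyp21a1 was at 2.1 FPKM in WT 4 and 4.48 FPKM in WT 5 and at 0 to 0.1 FPKM in the other 8 libraries, and Cyp11b1 was at 0.95 and 1.87 FPKM there and at 0 in the other 8. WT 3 had little of the cytochrome P450 Cyp3a16 (1.07 FPKM, against 34.09 to 86.63 in the other 4 WT libraries and 0.16 to 2.65 in KO). Results that rest on these libraries are given below with and without them.

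In KO 2 genes of the family fell, and they were next to each other in the Akr1c cluster. Akr1c20, a hydroxysteroid dehydrogenase of the cluster, dropped to 54.8% of its WT mean, and Akr1c6, which acts on the D ring of sex steroids, dropped to 59.9%. No member rose, where 3.98% of all genes tested did. In the test across 12247 genes, 2 of the 10 members were called lower in KO (20.0%), where 4.56% of all genes tested were called lower and 8.54% were called in either direction. All 10 log2 differences were below 0, as were 54.3% of those of all genes tested, and the median was -0.13 against -0.020 over all genes tested.

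Akr1c20 had 41.74, 37.42, 41.01, 44.18 and 42.63 FPKM in WT 1 to WT 5, and 25.41, 23.12, 19.52, 24.12 and 21.29 FPKM in KO 1 to KO 5. The lowest WT library lay 12.0 FPKM above the highest KO library, so the groups did not overlap. WT averaged 41.4 ± 2.52 FPKM and KO 22.7 ± 2.33 FPKM (SD, n = 5 each). On the log2 scale KO minus WT was -0.86 (SE 0.074, 95% confidence interval -1.02 to -0.69, limma adjusted p = 0.00024). By p-value it was the fifth of all genes tested. A two-sided exact permutation of the libraries returned p = 0.0079, which is the minimum for groups of 5 and 5.

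Akr1c6 was the most abundant member in WT. It had 232.23, 197.20, 217.89, 268.58 and 263.39 FPKM in WT 1 to WT 5, and 156.77, 111.86, 137.76, 146.62 and 153.53 FPKM in KO 1 to KO 5. KO 2 was the lowest library and the groups were 40.4 FPKM apart at their nearest. WT averaged 236 ± 30.2 FPKM and KO 141 ± 18.0 FPKM (SD, n = 5 each). On the log2 scale KO minus WT was -0.74 (SE 0.11, 95% confidence interval -0.97 to -0.51, limma adjusted p = 0.003, exact permutation p = 0.0079). Of all genes tested, 8.87% had groups that did not overlap, and these were the 2 members with that property.

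**Figure D1:**
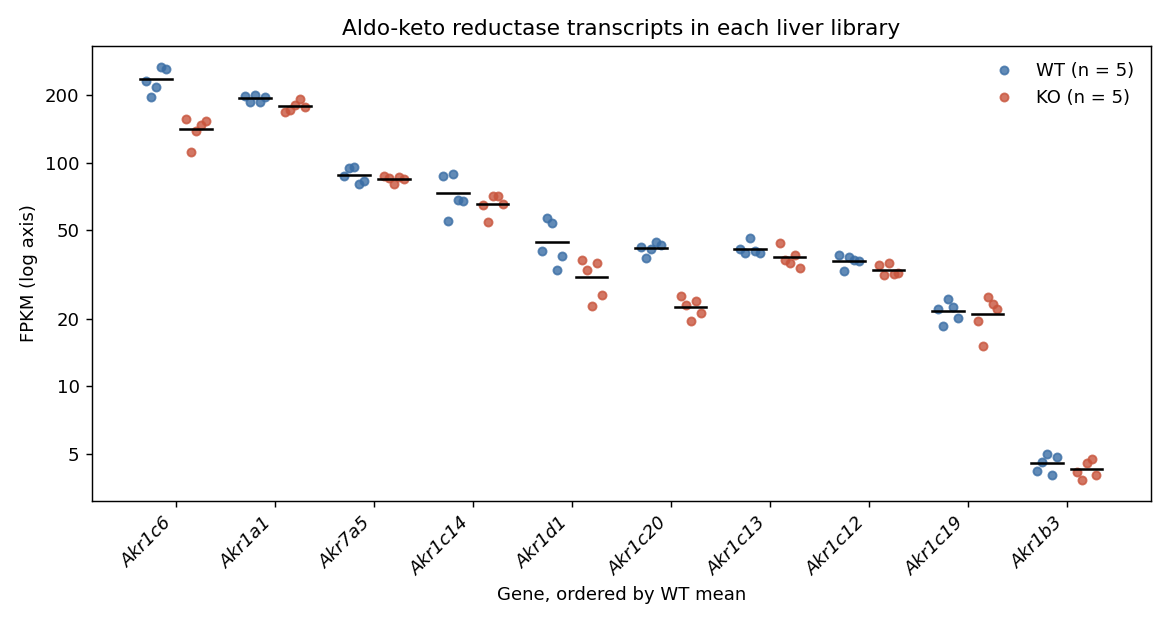
FPKM on a log axis of the 10 members in each library, WT in blue and KO in red, with black bars at the group means (n = 5 each). Akr1c6 and Akr1c20 have KO points that all lie below their WT points, from 111.86 to 156.77 against 197.20 to 268.58 for Akr1c6, while the points of the other 8 genes overlap.

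Both calls stood without the libraries named above. Leaving out WT 3 gave the same calls, and leaving out WT 4 and WT 5 together, which held the highest Akr1c6 and Akr1c20 of the WT group, gave log2 differences of -0.62 for Akr1c6 (limma adjusted p = 0.02) and -0.81 for Akr1c20 (limma adjusted p = 0.0039).

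The 2 genes that fell are also close in sequence. The coding regions of Akr1c6 and Akr1c20 (969 bases each) were 92.3% identical, with 75 differing bases. The only closer pair among the members was Akr1c12 and Akr1c13, at 96.2% with 37 differing bases, and every other pair of Akr1c members was 71.9% to 77.8% identical. The first 90 coding bases of the 6 Akr1c transcripts are shown to let the copies be told apart by eye. Capitals mark bases that differ from Akr1c6 at the same position, counted from the first base of the start codon.
Akr1c6: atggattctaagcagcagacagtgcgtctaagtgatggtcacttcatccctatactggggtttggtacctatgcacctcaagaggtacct
Akr1c20: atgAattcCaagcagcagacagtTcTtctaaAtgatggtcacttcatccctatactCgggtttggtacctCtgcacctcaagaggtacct
Akr1c12: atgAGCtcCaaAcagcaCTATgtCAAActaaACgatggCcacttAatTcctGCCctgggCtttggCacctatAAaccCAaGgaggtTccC
Akr1c13: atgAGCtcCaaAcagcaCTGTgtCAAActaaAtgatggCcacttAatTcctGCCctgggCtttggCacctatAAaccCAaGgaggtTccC
Akr1c14: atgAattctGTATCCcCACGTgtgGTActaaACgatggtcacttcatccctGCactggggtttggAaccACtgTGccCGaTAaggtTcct
Akr1c19: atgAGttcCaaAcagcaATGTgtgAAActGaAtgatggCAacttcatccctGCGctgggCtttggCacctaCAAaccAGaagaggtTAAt
In this stretch Akr1c20 differed from Akr1c6 at 7 positions and the other 4 at 28 to 30, while Akr1c12 and Akr1c13 differed from each other at 2.

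A read from a stretch that copies share cannot be placed by its letters, so the length of identical sequence bears on each value. Akr1c6 and Akr1c20 shared 28 windows of 50 bases, 2.08% and 2.17% of their transcripts, and no window of 75 bases with any transcript of another gene in the GENCODE M21 set. For Akr1c12 and Akr1c13 the shared part was 28.6% of 50-base and 17.3% of 75-base windows, so the split between these 2 is less certain. Akr1b3 shared 55.4% of its 75-base windows with transcripts of other gene models, chiefly Gm6644, Gm6736 and Gm12138, and its level is uncertain too. Akr1c14 shared 5.15% of its 75-base windows with Gm18857, and Akr1c19 shared 3.77% with Marcksl1-ps4. Akr1d1, Akr1a1 and Akr7a5 shared none at either length. No source used here gives the read length or how such reads were counted.

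All 6 Akr1c members lie within 560.2 kb of chromosome 13 (mm10, 4049011 to 4609174), which holds 9 aldo-keto reductase genes. Akr1c6 (ENSMUSG00000021210, plus strand, 4434306 to 4457877) and Akr1c20 (ENSMUSG00000054757, minus strand, 4486849 to 4523345) each have 9 exons and face each other with their 3′ ends, 29.0 kb apart. On one side, 154.9 kb separate Akr1c6 from Akr1c12 (ENSMUSG00000021211, minus strand, 4268176 to 4279433), and Akr1c19 (ENSMUSG00000071551, plus strand, 4228700 to 4252843), Akr1c13 (ENSMUSG00000021213, plus strand, 4191150 to 4205596) and Akr1c14 (ENSMUSG00000033715, plus strand, 4049011 to 4090688) lie beyond. On the other side are Akr1c21, which was at 0 to 0.08 FPKM, and Akr1e1.

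None of the other 4 Akr1c members passed the test, and their groups overlapped. Akr1c14, which acts on the A ring of androgens, had 87.48, 54.75, 89.05, 67.72 and 67.07 FPKM in WT and 64.61, 54.33, 70.90, 70.69 and 65.21 FPKM in KO. WT 1 and WT 3 were high, and WT 2 was nearly as low as the lowest KO library. KO minus WT was -0.15 on the log2 scale (SE 0.13, 95% confidence interval -0.43 to 0.13, limma adjusted p = 0.52), and ranged from -0.25 without WT 2 to -0.074 without WT 3. Akr1c12 was at 32.88 to 38.79 FPKM in WT and 31.42 to 35.71 FPKM in KO. Its log2 difference was -0.14 (95% confidence interval -0.27 to -0.0065, limma adjusted p = 0.18, exact permutation p = 0.04 unadjusted). Its close copy Akr1c13 was at 39.50 to 45.97 and 33.92 to 43.50 FPKM, a log2 difference of -0.13 (limma adjusted p = 0.29). Since these copies share much sequence they were also summed, which left the difference at -0.13 (limma adjusted p = 0.18). Akr1c19 had nearly equal means, 21.7 ± 2.32 FPKM in WT and 21.1 ± 3.87 FPKM in KO (SD, n = 5 each, limma adjusted p = 0.83), with KO 2 the lowest of all libraries at 15.10 FPKM. Its interval, from -0.33 to 0.22 on the log2 scale, did not reach the sizes estimated for Akr1c6 and Akr1c20.

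**Figure D2:**
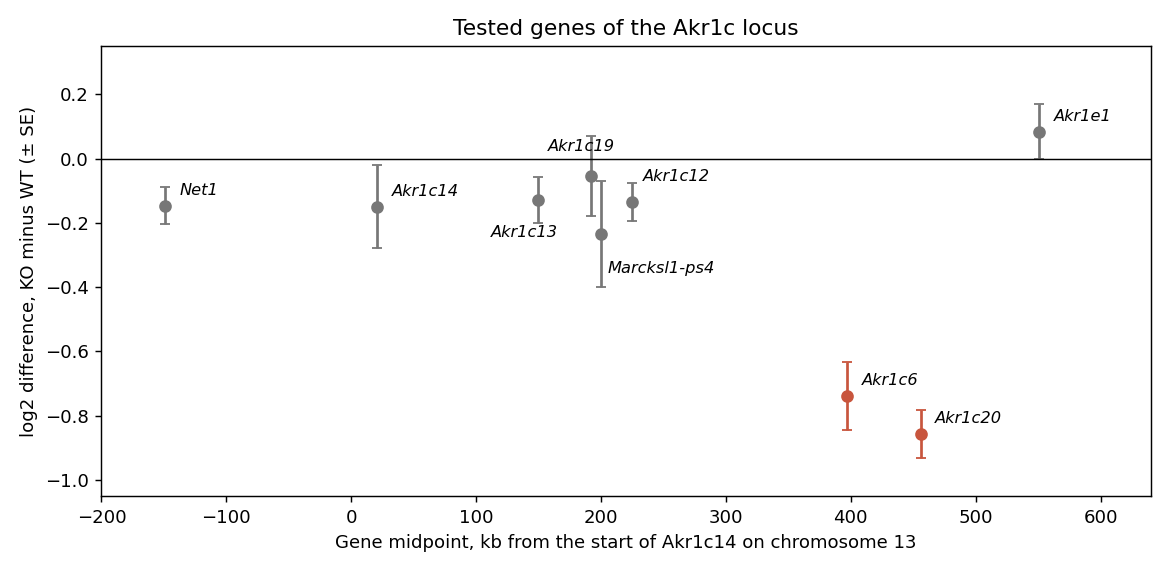
Log2 difference, KO minus WT, with its standard error, of the 9 tested genes in and beside the Akr1c cluster, against the distance of the gene's midpoint from the start of Akr1c14 in kb. Akr1c6 and Akr1c20, in red, passed the test and stand at -0.74 and -0.86, while the 7 genes in grey did not pass and lie between -0.23 and 0.084.

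A ratio of 2 genes within a library does not depend on how the library was scaled, so each of the 2 fallen genes was set against each of the other 4 Akr1c members. The pairs were chosen after the values were seen, by which genes had fallen and which had not, so the ratios are a description and have no test. The ratio of Akr1c20 to Akr1c12 was 1.08, 1.14, 1.08, 1.20 and 1.18 in WT 1 to WT 5, and 0.731, 0.736, 0.547, 0.759 and 0.663 in KO 1 to KO 5. Akr1c20 was thus above Akr1c12 in every WT library and below it in every KO library. The ratio of Akr1c6 to Akr1c12 went from 6.47 ± 0.768 to 4.27 ± 0.528 (SD, n = 5 each). The 8 such ratios were lower in KO by 0.59 to 0.82 on the log2 scale with no overlap, a direction that the choice of pairs favoured. The narrowest margin was Akr1c6 to Akr1c14, at 2.447 in WT 3 and 2.426 in KO 1. The ninth ratio, Akr1c6 to Akr1c20, was 5.68 ± 0.425 in WT and 6.27 ± 0.949 in KO and overlapped between genotypes.

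**Figure D3:**
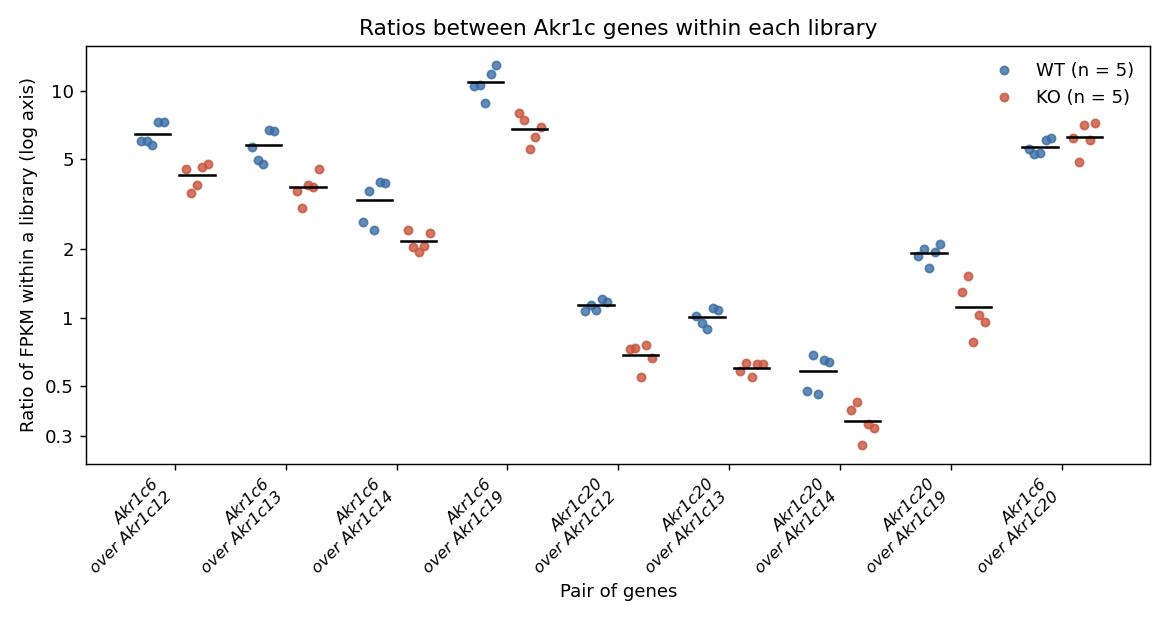
Ratio of the FPKM of 2 genes within each library, on a log axis, for 9 pairs of Akr1c genes, WT in blue and KO in red, with black bars at the group means (n = 5 each). For the first 8 pairs the KO points lie below the WT points, as for Akr1c20 over Akr1c12 (0.547 to 0.759 against 1.08 to 1.20), and for Akr1c6 over Akr1c20 they overlap.

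These shifts changed the make-up of the Akr1c transcript pool. The 6 members summed to 450 ± 39.7 FPKM in WT and 321 ± 28.2 FPKM in KO (SD, n = 5 each), with 380.5 to 479.9 in WT and 272.4 to 344.7 in KO. Akr1c6 made up 52.4% ± 3.68 of this sum in WT and 43.9% ± 2.29 in KO, and Akr1c20 made up 9.22% ± 0.352 and 7.11% ± 0.943. The other 4 members together went from 173 ± 20.9 to 157 ± 12.1 FPKM. No test was made on these sums, since the members were chosen with results known.

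Promoter sequences of 250 bases before to 50 after the start site were matched for 8 of the 10 members in RefSeq (GRCm38.p6, the assembly of mm10). Akr1c20 and Akr1b3 had no entry. Starts here are those of RefSeq and can differ from the GENCODE spans given above. The windows of Akr1c19 (4233490 to 4233789) and Akr1c14 (4059341 to 4059640) lie inside those spans. The stretch printed for Akr1c6 ends at 4434342, past the GENCODE start at 4434306. The 250 bases before the start of Akr1c6, which fell, and of Akr1c19, whose means were nearly equal, are given 5′ to 3′, with matches to the searched motifs in capitals.
Akr1c6, chr13:4434093-4434342, plus strand: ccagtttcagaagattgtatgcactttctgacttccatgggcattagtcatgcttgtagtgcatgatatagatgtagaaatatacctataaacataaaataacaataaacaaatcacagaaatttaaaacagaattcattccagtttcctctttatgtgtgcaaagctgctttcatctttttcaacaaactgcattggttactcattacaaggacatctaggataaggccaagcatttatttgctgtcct
Akr1c19, chr13:4233490-4233739, plus strand: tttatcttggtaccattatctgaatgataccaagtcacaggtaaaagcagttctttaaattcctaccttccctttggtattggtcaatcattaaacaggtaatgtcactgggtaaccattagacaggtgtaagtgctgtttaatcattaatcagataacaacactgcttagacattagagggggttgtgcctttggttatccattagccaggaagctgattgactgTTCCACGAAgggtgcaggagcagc
Searched on both strands of the full 300 bases were TGACNNNGC (the core of the antioxidant response element), TTCNNNGAA (the core bound by STAT5, a mediator of growth hormone), CAAAGTCCA (HNF4) and the HNF1 palindrome. Akr1c19 held 1 match to TTCNNNGAA, beginning 24 bases before the start, and 1 to TGACNNNGC on the opposite strand, beginning at base 8 after it. The other 7 matched promoters held none. Over 32851 promoters of the same length, 8.3% held TTCNNNGAA and 12.4% held TGACNNNGC, 0.475% held CAAAGTCCA and 0.00913% held the HNF1 palindrome. The promoters of Akr1c12 and Akr1c13 were 95.9% identical over 296 aligned bases. A match describes letters in this window only.

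Akr1d1 (ENSMUSG00000038641, chromosome 6, plus strand, 37530173 to 37568815) had the next largest difference and did not pass the test. It had 40.26, 56.39, 53.59, 33.12 and 38.09 FPKM in WT 1 to WT 5, and 36.81, 33.12, 22.77, 35.40 and 25.72 FPKM in KO 1 to KO 5. WT 2 and WT 3 were high, KO 3 and KO 5 were low, and WT 4 and KO 2 had the same value. The mean was 44.3 ± 10.2 FPKM in WT and 30.8 ± 6.18 FPKM in KO (SD, n = 5 each). KO minus WT was -0.51 on the log2 scale (SE 0.17, 95% confidence interval -0.89 to -0.13, limma adjusted p = 0.093). The exact permutation test on this gene alone gave p = 0.04, before any adjustment for the number of genes. Without WT 4 and WT 5 together the difference was -0.70 (limma adjusted p = 0.055).

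The enzymes of bile acid synthesis, which Akr1d1 serves midway, moved in both directions. Of 16 tested, 2 fell, 1 rose and 13 did not pass, with a median log2 difference of 0.026. Scp2, a thiolase and lipid carrier that shortens the side chain, fell from 1553 ± 88.2 to 1294 ± 21.7 FPKM (SD, n = 5 each, log2 difference -0.26). Amacr, the racemase of the side chain, fell by 0.25, and Abcd3, a peroxisomal transporter of bile acid precursors, rose by 0.21. Hsd3b7, which acts just before Akr1d1, was at -0.23 (limma adjusted p = 0.064), and the rate-limiting Cyp7a1 at 0.44 (limma adjusted p = 0.36), neither passing. Leaving out WT 1, KO 2, KO 3, KO 4 or KO 5 ended the calls of Amacr and Abcd3, and leaving out WT 2 or WT 3 that of Abcd3 too (largest adjusted p 0.072 for Amacr and 0.093 for Abcd3). Without WT 4 and WT 5 together Amacr was at adjusted p = 0.0535. Abcd3 lies 8.8 Mb from Etnppl on chromosome 3.

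Among steroid reductases and dehydrogenases outside the family, 2 of 13 tested genes fell, 1 rose and 10 did not pass, with a median of -0.066. Cyp17a1, which makes androgen precursors, fell from 225 ± 40.9 to 126 ± 24.6 FPKM (SD, n = 5 each, log2 difference -0.83). Hsd11b1, which regenerates active glucocorticoid, fell from 296 ± 39.6 to 214 ± 25.8 FPKM (-0.47). Hsd17b13, an enzyme of lipid droplets, rose from 358 ± 35.6 to 474 ± 23.4 FPKM (0.41). Each of the 3 stayed called whichever library was left out, with limma adjusted p up to 0.047.

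Akr1a1 (ENSMUSG00000028692, chromosome 4, minus strand, 116636510 to 116651680) was among the most abundant and steadiest members. Its level was 199.24, 185.81, 199.83, 186.76 and 197.28 FPKM in WT 1 to WT 5, and 168.34, 171.89, 181.23, 193.17 and 177.12 FPKM in KO 1 to KO 5. Only KO 4 reached the WT range. KO minus WT was -0.12 on the log2 scale (SE 0.050, limma adjusted p = 0.16, exact permutation p = 0.032 unadjusted).

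Downstream of Akr1a1, both later enzymes of ascorbate synthesis fell. Rgn, the lactonase that acts on gulonate, fell from 221 ± 25.4 to 123 ± 10.8 FPKM (SD, n = 5 each, log2 difference -0.84, limma adjusted p = 0.00061). Gulo, which completes ascorbate, fell from 120 ± 13.2 to 93.0 ± 4.08 FPKM (-0.36). Both stayed called whichever single library was left out, and Gulo was at adjusted p = 0.053 without WT 4 and WT 5 together. Upstream, Ugp2, which makes UDP-glucose, rose by 0.43, a call lost with any library but WT 3 left out (adjusted p up to 0.1) and at adjusted p = 0.18 without WT 4 and WT 5 together. Ugdh was at -0.028. In all, 2 of 7 tested genes of glucuronate and ascorbate synthesis fell, 1 rose and 4 did not pass (median -0.028).

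Akr1b3 (ENSMUSG00000001642, chromosome 6, minus strand, 34302434 to 34317478) was the least abundant member. Aldose reductase transcript was at 4.02 to 5.0 FPKM in WT and 3.81 to 4.75 FPKM in KO, a log2 difference of -0.083 (95% confidence interval -0.27 to 0.10, limma adjusted p = 0.60). Sord, which takes the sorbitol made by Akr1b3 on to fructose, fell from 410 ± 25.5 to 304 ± 13.7 FPKM (SD, n = 5 each, log2 difference -0.43, limma adjusted p = 0.0015). It was the 1 gene of 8 in polyol and fructose metabolism that fell, and it stayed called with any single library left out. The sugar transporter gene Slc2a8, at -0.33 with adjusted p = 0.074, passed without WT 4 (adjusted p = 0.047).

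Akr7a5 (ENSMUSG00000028743, chromosome 4, plus strand, 139310744 to 139318426) differed least beside Akr1c19. It was at 79.92 to 95.29 FPKM in WT and 80.23 to 86.76 FPKM in KO, a log2 difference of -0.055 (95% confidence interval -0.18 to 0.071, limma adjusted p = 0.61). The KO libraries all lay within the WT range.

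**Figure D4:**
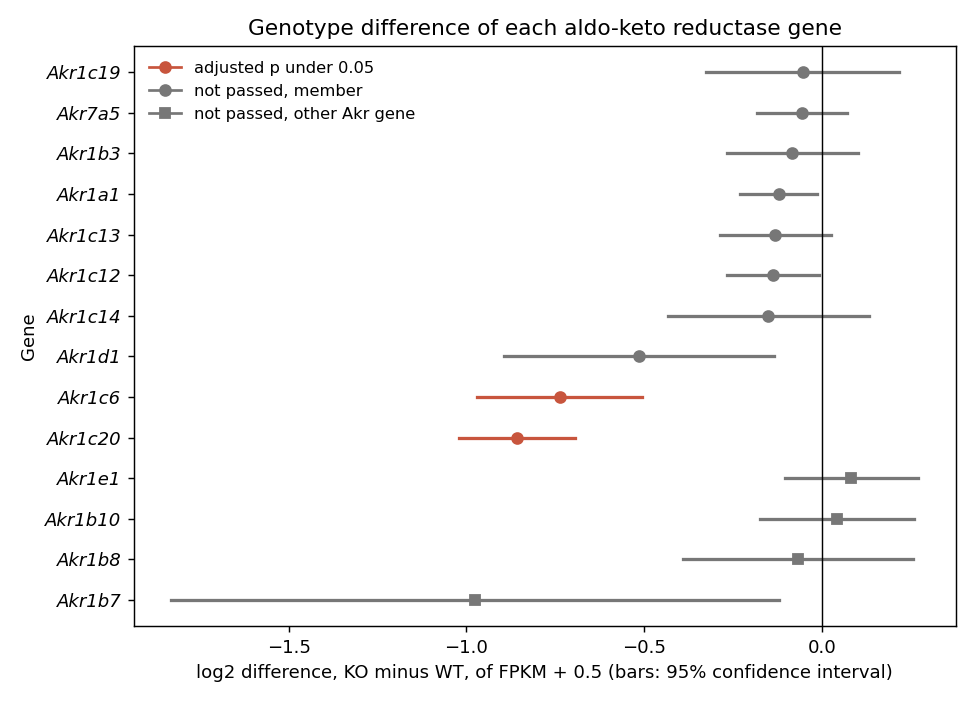
Log2 difference, KO minus WT, of FPKM + 0.5 for the 10 members (circles) and the 4 other aldo-keto reductase genes above the filter (squares), with 95% confidence intervals. Akr1c20 (-0.86) and Akr1c6 (-0.74), in red, passed the test, and Akr1d1 (-0.51) and Akr1b7 (-0.98), in grey, did not.

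The order of the members changed between genotypes. In WT the means ran from Akr1c6 (236 FPKM) through Akr1a1 (194), Akr7a5 (88.1), Akr1c14 (73.2), Akr1d1 (44.3), Akr1c20 (41.4), Akr1c13 (41.2), Akr1c12 (36.5) and Akr1c19 (21.7) to Akr1b3 (4.53). Neighbours in this order overlapped between libraries from Akr7a5 to Akr1c13, and Akr1c6 overlapped with Akr1a1. In KO, Akr1a1 (178 FPKM) stood above Akr1c6 (141) with no overlap. Akr1c20 (22.7) had moved below Akr1c13 (37.7) and Akr1c12 (33.1). Akr1d1 (30.8), which stood above Akr1c20 in both genotypes, had also moved below Akr1c13 and Akr1c12. In KO the libraries of Akr1c20 overlapped with those of Akr1d1 and of Akr1c19 (21.1).

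Within a genotype the members did not vary as one group. WT 2 was the lowest WT library for 6 of 10 members and KO 2 the lowest KO library for 5, while WT 3 was the highest WT library for 6. As deviations from the genotype means, the 45 pairs of members had a median Pearson r of 0.19 across the 10 libraries, from -0.58 to 0.91, and 31 were above 0. The highest was Akr1d1 with Akr7a5 (0.91), which differ in role and chromosome, followed by Akr1c12 with Akr1c14 (0.77) and Akr1c14 with Akr1c19 (0.76) of the cluster. Akr1c6 and Akr1c20 were at 0.92 across all libraries and 0.42 once the genotype means were removed. These values describe points that share a library and its scaling.

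The genes whose levels most resembled those of the 2 fallen members over the 10 libraries were found among all genes tested, on log2 values. For Akr1c20 they were Nnt, the mitochondrial transhydrogenase that makes NADPH (Pearson r 0.98), the transcriptional repressor Zbtb18 (0.98) and the metalloprotease Adam9 (0.98). For Akr1c6 they were Klkb1, plasma prekallikrein (0.98), the sugar transporter gene Slc35b4 (0.97) and the kinase Ripk1 (0.97). All 6 were among the genes called lower in KO, which follows from likeness to members whose libraries separate by genotype. Klkb1 fell from 64.5 ± 5.90 to 36.5 ± 4.10 FPKM (SD, n = 5 each, log2 difference -0.82) and Nnt from 49.0 ± 2.0 to 37.6 ± 1.69 FPKM (-0.38). With the genotype means removed, r was 0.77 to 0.88 for these genes, which were picked for a high r over the same libraries. The call of Ripk1 (-0.25, limma adjusted p = 0.043) was lost without any library but WT 2 (adjusted p up to 0.1) and was at adjusted p = 0.18 without WT 4 and WT 5 together. The other 5 stayed called whichever library was left out.

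Outside the 10, the table held 7 aldo-keto reductase genes, of which 4 were above the filter and none passed the test. Akr1b10 (log2 difference 0.043), Akr1b8 (-0.067) and Akr1e1, an anhydrofructose reductase at the end of the cluster (0.084), differed little. Akr1b7, which is abundant in the adrenal cortex of mice, had 0.66, 0.71, 0.45, 3.05 and 3.36 FPKM in WT 1 to WT 5 and 0.24 to 0.60 FPKM in KO. The 2 high libraries, WT 4 and WT 5, were those with Cyp21a1 and Cyp11b1. Its log2 difference was -0.98 (limma adjusted p = 0.15) and became -0.28 without both (limma adjusted p = 0.37). Akr1c18, Akr1c21 and Akr1cl were at or below 0.23 FPKM in every library.

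Enzymes of other families that handle the same carbonyls also moved both ways. Of 20 tested carbonyl reductases, alcohol dehydrogenases and aldehyde dehydrogenases, 3 fell, 1 rose and 16 did not pass, with a median of -0.12. Adh1 fell from 706 ± 93.5 to 502 ± 46.5 FPKM (SD, n = 5 each, log2 difference -0.49), the mitochondrial Aldh2 from 1302 ± 39.7 to 1088 ± 61.2 FPKM (-0.26) and the peroxisomal carbonyl reductase Dhrs4 by 0.34. Aldh1a7 rose from 77.6 ± 7.59 to 105 ± 9.31 FPKM (0.44). Without KO 4 or KO 5 the call of Dhrs4 was lost (largest adjusted p 0.055). The other 3 stayed called whichever single library was left out, and without WT 4 and WT 5 together Aldh2 was at adjusted p = 0.053 and Dhrs4 at 0.058. Adh1 lies 7.62 Mb from Etnppl, and the part of this position was not tested.

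NRF2 is a transcription factor known to induce several aldo-keto reductases. Of 16 tested NRF2 targets, 3 fell, 1 rose and 12 did not pass, with a median of -0.044. Gclm, a subunit of the enzyme that starts glutathione synthesis, fell by 0.37, and its partner Gclc fell by 0.37. Nqo1, a quinone reductase, fell by 0.48 and Srxn1, a sulfiredoxin, rose by 0.35. Gclm, 8.35 Mb from Etnppl, stayed called with any library left out. The calls of Nqo1, Gclc and Srxn1 were each lost without any of 8 or 9 of the 10 libraries, all but WT 4 for Nqo1, all but WT 2 and KO 1 for Gclc and all but WT 5 and KO 1 for Srxn1 (adjusted p up to 0.098, 0.11 and 0.073). Gclc was at adjusted p = 0.18 without WT 4 and WT 5 together. Nfe2l2, which encodes NRF2, was at -0.036.

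**Figure D5:**
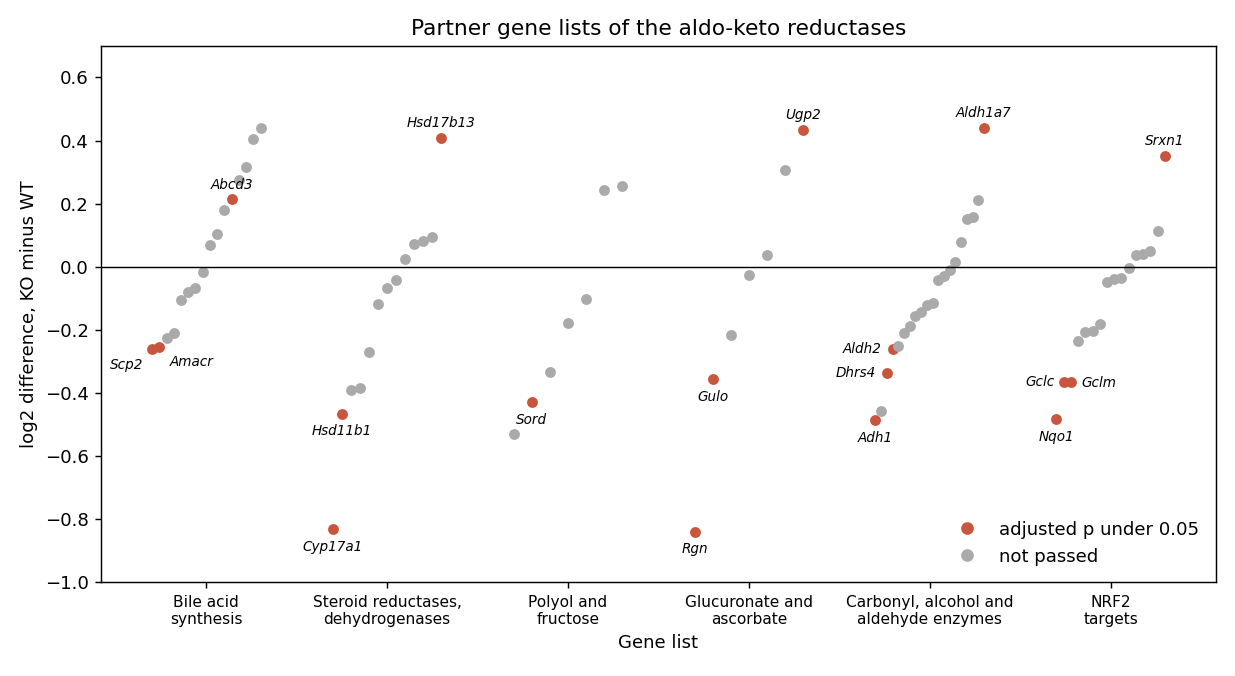
Log2 difference, KO minus WT, of the genes reported here from 6 lists of genes that share pathways, substrates or a regulator with the aldo-keto reductases. Red points with names passed the test, 5 of them above 0 and 13 below, with Rgn (-0.84) and Cyp17a1 (-0.83) the lowest, and grey points did not.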

How the data were processed

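Poly-A liver RNA was sequenced in paired ends as 10 libraries. The values are FPKM per gene and library, as deposited by the authors. The submitters' processing notes name STAR, RSEM, R 4.0.2, DESeq, DESeq2 and mm10 without giving their roles. No source used here gives the annotation release, read length or strand setting, so overlapping and antisense genes may share reads.

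From these values log2(FPKM + 0.5) was computed, a scale that understates the fold change of low genes. Genes averaging 0.5 FPKM or more, 12247 in number, entered limma 3.58.1 (R 4.3.3, trended and robust eBayes, genotype alone), with two-sided p-values adjusted by Benjamini-Hochberg over all of them and a threshold of 0.05. Tested on simulated data for KO and WT with these 12247 genes, the fit recovered 60.7% of genes changed by 0.5 and 90.7% of those changed by 1 (log2), with 5.15% false calls. Single genes were compared by exact permutation.

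The members and lists were chosen with earlier results of these data known. Of 136 list entries, 135 matched a symbol. In polyol and fructose metabolism 1 gene is not reported here. Named genes are the members, other Akr genes above the filter, the 3 genes of smallest p and any called gene per list, the 3 genes most like each called member by Pearson r, and Etnppl. Cyp3a16, Cyp21a1, Cyp11b1, Cps1, Marco, Hsd3b7, Cyp7a1, Ugdh and Nfe2l2 were named after their values were seen. Sequences and positions came from GENCODE M21 and RefSeq, aligned with Biopython 1.88. Alternatives were other pseudocounts and filters, 3 scalings, a non-robust fit, a replicate block and each library left out.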

Additional observations from a re-analysis of the deposited data

Results flagged for a closer look

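The search covered the members and the other genes named by the rule given above. Within each genotype of 5 libraries, it looked for 1 library far from the other 4. This was so in 3 of 82 groups, where about 1 group in 20 would be picked out by chance. Other genes in the text, such as cell type markers and genes named after their values were seen, were not searched. Akr1c13 was at 45.97 FPKM in WT 3, against 39.5 to 40.91 FPKM in the other WT libraries. Abcd3 was at 227.89 FPKM in KO 1, against 251.49 to 258.79 FPKM in the other KO libraries. Adam9 was at 18.78 FPKM in WT 5, against 17.11 to 17.45 FPKM in the other WT libraries.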

How the results depend on the processing

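Akr1c6 and Akr1c20 stayed called lower, and no other member was called, in each of 20 alternatives, of which 1, leaving out WT 4 and WT 5 together, was chosen after seeing the data. The log2 difference ranged from -0.80 to -0.62 for Akr1c6 (limma adjusted p up to 0.02) and from -0.90 to -0.81 for Akr1c20 (limma adjusted p up to 0.0045). With single libraries left out, 2 members were called lower and 0 higher each time. Akr1d1 ranged from -0.70 to -0.41 and never passed. Signs turned for 3 genes that were not called, and the cause was not tested: with single libraries left out, Akr1c19 ranged from -0.12 to 0.058 (without KO 2), Akr1b10 from -0.00069 (without WT 4) to 0.080 and Akr1b8 from -0.17 to 0.00998 (without WT 3), and Akr1b10 was at -0.065 without WT 4 and WT 5. Other scalings moved the median of all genes by at most 0.024 (log2) and changed no member's direction. Among the named list genes they ended the calls of 2 NRF2 targets: that of Gclc with median-of-ratios scaling (adjusted p = 0.056) and quantile normalization (0.058), and that of Nqo1 with upper-quartile scaling (0.0504) and quantile normalization (0.0513). Median-of-ratios scaling also ended the call of Ripk1, which is in none of the lists. The non-robust fit ended that of Gclc (adjusted p = 0.052). Using no filter ended the calls of Amacr, Abcd3, Ugp2, Srxn1, Nqo1, Gclc and Ripk1 (0.053 to 0.098).

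The calls over all genes, 488 higher and 558 lower, were 294 and 370 with no filter, 208 and 318 without WT 4 and WT 5, and 259 to 456 and 317 to 544 with single libraries left out. Deviations of same-numbered libraries had correlations of -0.21 to 0.21, and 2 of 5 were highest with their own number. The labels do not say whether the numbers pair the samples, and so few correlations cannot settle it. With the replicate number as a block, 230 genes were higher and 321 lower, Akr1c6 was at -0.74 and Akr1c20 at -0.86 (limma adjusted p = 0.0045 for each), and 2 members were called lower and 0 higher. The block ended the calls of Cyp17a1 (adjusted p = 0.0505), Hsd11b1 (0.061), Aldh2 (0.053) and Dhrs4 (0.062), and of Amacr, Abcd3, Ugp2, Srxn1, Nqo1, Gclc and Ripk1 (0.062 to 0.10). No read totals were used, so single values carry no counting error.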
